A study of Mus musculus with 12 samples.

Results

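The cytosolic heat shock genes were followed by RNA-Seq in mouse embryonic fibroblasts (MEFs). They were chosen by name, with earlier results of these data known, out of 24062 gene symbols in the count table. The 10 genes are Hsf1, Hspa1a, Hspa1b, Hspa8, Hsph1, Hsp90aa1, Dnajb1, Hspb1, Hspb8 and Bag3. All 10 were found, and all 10 passed the filter on low counts that left 12154 genes for testing. The 12 libraries fall into 4 conditions with 3 replicates each. MEFs expressing shRenilla, a hairpin against a luciferase that mouse cells lack, served as the control line, and MEFs expressing shBruce#1 carried a hairpin against Birc6, the gene that encodes the giant ubiquitin-conjugating enzyme BRUCE. Each line was either grown in full medium (FM) or kept for 2 h in serum-free medium without amino acids (Starv). All 4 groups are hairpin-expressing MEFs in culture, BRUCE was depleted by a single hairpin sequence, and the labels do not say whether the replicates came from separate cultures, so p-values measure only the spread between these libraries.

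Heat shock proteins are chaperones that hold, fold or help to degrade unfolded proteins. HSP70 proteins bind short hydrophobic stretches and use ATP to cycle between binding and release, J proteins deliver clients and stimulate ATP hydrolysis, and nucleotide exchange factors reset the cycle, while HSP90 acts later on proteins such as kinases and steroid receptors, and small heat shock proteins hold clients without ATP. The genes are driven by HSF1, a transcription factor that trimerizes on inverted repeats of GAA when unfolded proteins draw chaperones away from it, and in fibroblasts some are highly expressed without stress and others are almost silent until heat.

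The 10 genes lie on 7 chromosomes of GRCm38. Hspa1a (chr17:34969190-34972156) and Hspa1b (chr17:34956436-34959238) are neighbouring minus-strand copies of the inducible HSP70 gene. Hspa8 (chr9:40800984-40810087) encodes the constitutive HSC70, and Hsph1 (chr5:149614287-149636376) encodes an HSP110 protein, which exchanges nucleotide on HSP70. Hsp90aa1 (chr12:110690605-110702728) encodes the inducible HSP90 alpha, Dnajb1 (chr8:83608193-83612653) the J protein HSP40 and Bag3 (chr7:128523616-128546981) an exchange factor that links HSP70 to selective autophagy. Hspb1 (chr5:135887919-135889563) and Hspb8 (chr5:116408491-116422864) encode small heat shock proteins, the latter a partner of BAG3. Hsf1 (chr15:76477422-76501913) encodes the transcription factor itself.

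Promoter sequences are shown because shared HSF1-type repeats are the feature by which these genes are usually grouped. In the RefSeq promoter table for GRCm38.p6, 7 of the 10 genes matched, with 9 promoters. Hsf1, Hspa8 and Hsp90aa1 did not match. The 250 bases before each start were searched on both strands for the paired repeats GAANNTTC and TTCNNGAA, each of which is its own reverse complement. Printed 5′ to 3′ with these matches in capitals are the windows of the gene with the strongest change (Hspa1b) and of its copy, the 30 bases around the match in Hsph1, the window of Hspb1, and the windows of 2 genes that fell without a match.
Hspa1b (chr17:34959239-34959488, strand -): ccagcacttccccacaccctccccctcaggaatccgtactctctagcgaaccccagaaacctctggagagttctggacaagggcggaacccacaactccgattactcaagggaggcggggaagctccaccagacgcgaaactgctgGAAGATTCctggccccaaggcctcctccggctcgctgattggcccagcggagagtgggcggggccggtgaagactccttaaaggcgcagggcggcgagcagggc
Hspa1a (chr17:34972157-34972406, strand -): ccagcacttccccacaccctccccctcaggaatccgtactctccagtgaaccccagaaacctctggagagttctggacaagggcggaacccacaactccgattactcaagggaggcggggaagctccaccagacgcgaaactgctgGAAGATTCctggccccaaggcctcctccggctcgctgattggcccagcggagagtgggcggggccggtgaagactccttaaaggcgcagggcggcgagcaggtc
Hsph1 (chr5:149636351-149636380, strand -): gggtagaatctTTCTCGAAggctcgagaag
Hspb1 (chr5:135887669-135887918, strand +): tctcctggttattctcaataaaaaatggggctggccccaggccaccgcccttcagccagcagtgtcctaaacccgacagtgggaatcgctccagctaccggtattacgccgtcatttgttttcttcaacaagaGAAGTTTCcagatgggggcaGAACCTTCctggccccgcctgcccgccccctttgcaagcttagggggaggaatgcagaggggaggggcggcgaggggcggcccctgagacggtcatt
Dnajb1 (chr8:83607925-83608174, strand +): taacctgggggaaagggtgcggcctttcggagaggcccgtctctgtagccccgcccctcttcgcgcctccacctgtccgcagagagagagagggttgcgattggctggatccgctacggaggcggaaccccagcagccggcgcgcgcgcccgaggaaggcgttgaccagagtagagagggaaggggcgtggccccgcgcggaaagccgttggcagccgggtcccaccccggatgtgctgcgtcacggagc
Bag3 (chr7:128523333-128523582, strand +): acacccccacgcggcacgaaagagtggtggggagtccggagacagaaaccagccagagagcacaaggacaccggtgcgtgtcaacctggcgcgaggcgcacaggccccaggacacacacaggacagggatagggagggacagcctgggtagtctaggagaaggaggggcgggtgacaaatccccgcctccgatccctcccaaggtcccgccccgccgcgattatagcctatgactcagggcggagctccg

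A paired repeat was found in 5 of the 9 promoters, which belong to Hspa1a, Hspa1b, Hspb1 and Hsph1, against 4218 of all 32851 promoters of the same length (12.8%). These 5 are not independent, since the 2 windows of Hsph1 overlap and hold the same match, and Hspa1a and Hspa1b are copies. The Hspa1a and Hspa1b windows differed at 3 of 250 bases (98.8% identity), and in both the match lay at -104 to -97 from the start site. Hspb1 held 2 matches, at -117 to -110 and at -97 to -90, and Hsph1 held 1, at -54 to -47 or -33 to -26 depending on which of its 2 listed starts is used. A run of 3 alternating units (GAANNTTCNNGAA or TTCNNGAANNTTC, which contain the paired repeats) was in none of the 9 windows and in 153 promoters in all (0.466%). Neither Dnajb1, Bag3 nor Hspb8 held a match in this window.

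Total counts per library ranged from 7717265 to 18510540, and the shallowest library was shBruce Starv replicate 1. Birc6 had normalized counts (counts scaled for library size and composition) of 3273 to 5061 in shRenilla FM and 1207 to 1390 in shBruce FM, with a log2 fold change of -1.75 (edgeR quasi-likelihood test, adjusted p = 0.0627). In Starv the ranges were 2787 to 4759 and 703 to 1226 (log2 fold change -1.98, adjusted p = 0.0186), and the lines did not overlap in either medium. The shBruce Starv libraries stood apart in their spread. Chi-square per degree of freedom between 2 of them was 46.4 to 92.3, against 2.18 to 27.4 between replicates of the other conditions. Summed fibroblast markers were at 8820 to 13500 CPM (counts scaled to library size) in every library, while summed epithelial, endothelial, leukocyte and pluripotency markers never exceeded 9.89 CPM, with Cd3e and Zfp42 at 0 throughout.

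Levels were compared between genes per transcript length, as RPKM (counts per kilobase of the longest coding transcript, scaled to library size). In shRenilla FM, Hspa8 was the most abundant at 274 RPKM ± 8.99 (SD, n = 3). Hsph1 at 116 ± 4.13 and Hsp90aa1 at 112 ± 5.13 came next, and their ranges overlapped, so their order is not resolved. Hsf1 (50.4 ± 3.66), Dnajb1 (42.4 ± 1.76), Hspb8 (37.9 ± 1.45) and Bag3 (27.9 ± 1.81) followed in steps whose library ranges did not overlap. The inducible HSP70 gene Hspa1b reached 4.50 ± 0.349 RPKM and the small heat shock gene Hspb1 3.55 ± 0.0722. Hspa1a was near the limit of detection, at 0.142 ± 0.0103 RPKM, and its raw counts were 6 to 8 per library. In the same cells HSC70 mRNA was thus present at far higher levels than either inducible HSP70 copy. In shBruce FM the highest 3 were again Hspa8 (293 ± 28.2), Hsph1 (132 ± 9.82) and Hsp90aa1 (126 ± 10.7), the latter pair with overlapping ranges. In shBruce Starv, Hsp90aa1 at 165 ± 76.0 RPKM had a higher mean than Hspa8 at 150 ± 8.28, but its libraries ranged from 103 to 250 RPKM and did not separate from those of Hspa8.

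**Figure D1:**
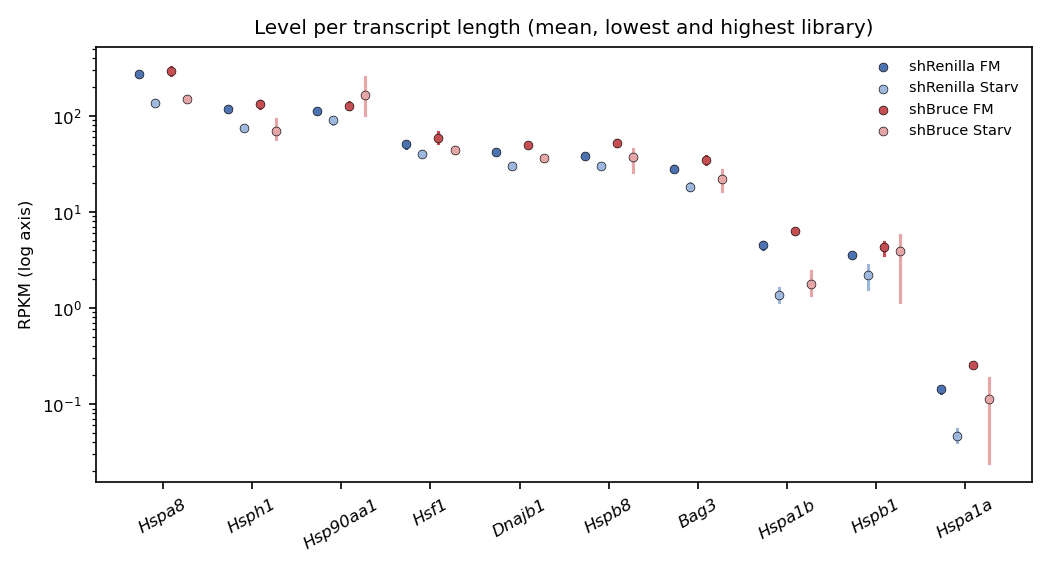
Level of each heat shock gene per transcript length, in RPKM on a log axis, with a point for the mean and a line from the lowest to the highest of the 3 libraries of each condition. Hspa8 stood highest in shRenilla FM at 274 RPKM and Hspa1a lowest at 0.142, and the longest lines belong to shBruce Starv.

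Several of these levels share sequence with other genes, and how reads that map to more than 1 place were counted is not given in the sources used here. Of the 50-base words of the Hspa1b transcript, the length of a read, 62.3% also occurred in Hspa1a. For Hspa8 74.8% of words occurred in the transcripts of 13 other genes, led by the pseudogene Gm15459, for Hsp90aa1 58.5% and for Hspb1 51.6%, the latter in the pseudogene Hsp25-ps1. No such words were found for Hsf1, Hsph1, Hspb8 or Bag3, and 0.441% for Dnajb1. The counts of Hspa1a, Hspa1b, Hspa8, Hsp90aa1 and Hspb1 are therefore uncertain in level.

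The first comparison asks how the control line responded to starvation. In shRenilla MEFs the heat shock genes were lower after 2 h in Starv: 5 of 10 fell past the threshold (Hspa1b, Hspa8, Hsph1, Dnajb1 and Bag3) and none rose, where 7.27% of all genes tested fell and 9.69% rose (edgeR quasi-likelihood test, adjusted p under 0.05). The fold changes of all 10 were below 0, from -1.73 to -0.33 on the log2 scale, with a median of -0.63 against -0.00509 over all genes tested. In all 10 the Starv libraries lay below every FM library, which held for 26.5% of all genes tested. Leaving out 1 library moved the count of 5 to between 3 and 8. It was 3 without shRenilla FM replicate 2 or 3 or shRenilla Starv replicate 1 or 2 (3.76% to 4.29% of all genes fell), and 8 without shBruce Starv replicate 3 (11.4% of all genes fell). With only the 6 shRenilla libraries fitted, Hspa1a did not pass the filter on low counts, and the 9 genes tested fell, where 19.5% of all genes tested in that fit fell. Since these are bulk libraries, fewer cells that express a gene and less RNA per cell cannot be told apart.

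**Figure D2:**
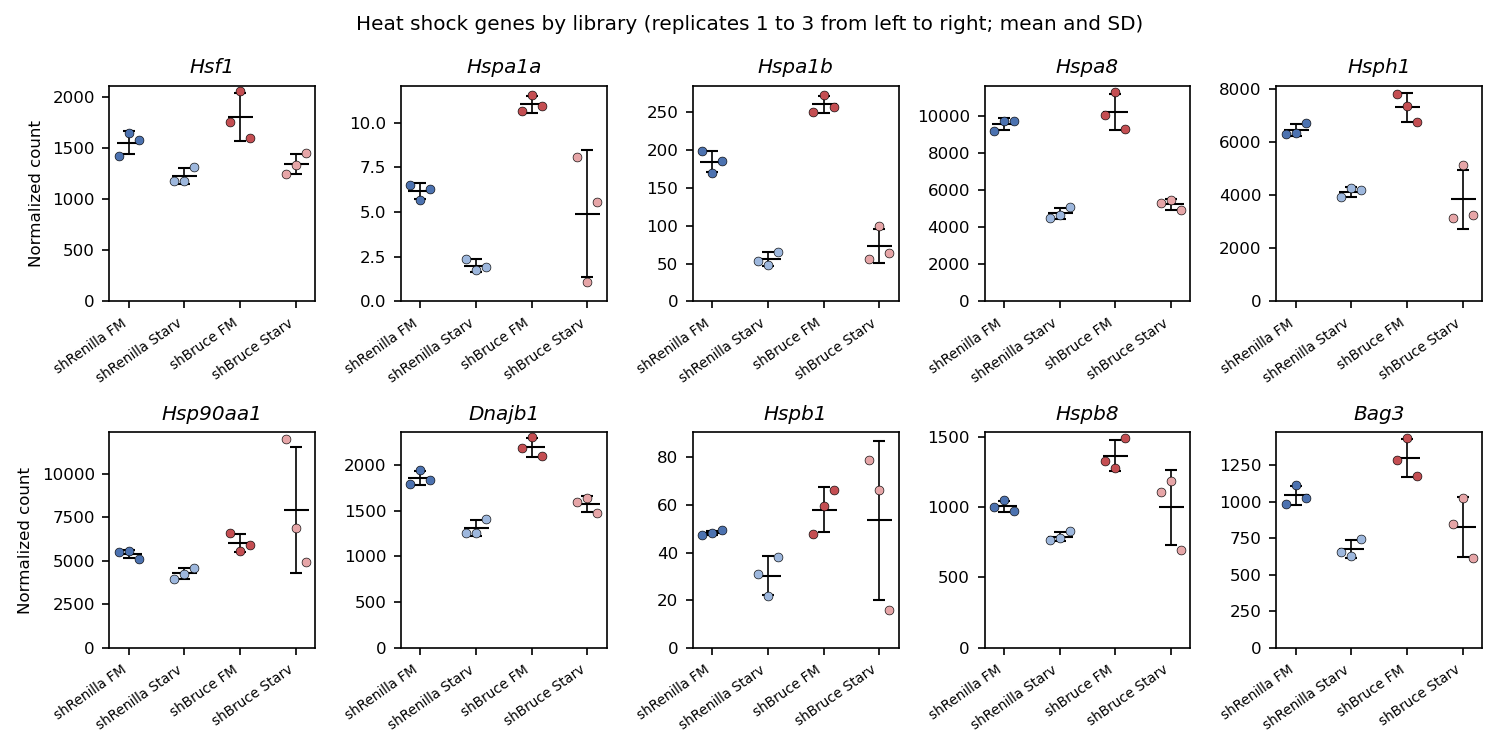
Normalized counts of the 10 heat shock genes in each of the 12 libraries (points are replicates 1 to 3 from left to right, with the mean as a line and the SD as bars, n = 3, on linear axes that start at 0). In shRenilla, the 3 Starv points lie below the 3 FM points in every panel, and in shBruce Starv the points of Hsp90aa1, Hspb1, Hspa1a and Hspb8 spread widely.

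The strongest change was in the inducible HSP70. Hspa1b had normalized counts of 198, 170 and 185 in shRenilla FM replicates 1 to 3, and 53.5, 47.6 and 65.7 in shRenilla Starv. The highest starved library thus held less than the lowest fed library, and the log2 fold change was -1.73 ± 0.20 (SE, edgeR quasi-likelihood test, adjusted p = 8.6e-05). The starved mean was 0.302 of the fed mean, and an exact permutation test gave p = 0.1, the smallest that 3 libraries against 3 allow, as it did for each of the 10 genes in this comparison. In shBruce MEFs the counts were 250, 273 and 257 in FM and 56.5, 99.2 and 64.1 in Starv. The groups again lay apart, with a log2 fold change of -1.80 ± 0.20 (edgeR, adjusted p = 5.8e-05).

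The copy Hspa1a had raw counts of 8, 6 and 7 in shRenilla FM and of 3, 2 and 2 in shRenilla Starv. In shBruce the raw counts were 10, 11 and 11 in FM and 4, 1 and 6 in Starv. These low counts gave log2 fold changes of -1.55 ± 0.54 and -1.29 ± 0.47 that did not pass the threshold (edgeR, adjusted p = 0.065 and 0.0634). The shRenilla call was gained without shBruce Starv replicate 1 (-1.54) or 2 (-1.55), and the shBruce call without shBruce Starv replicate 1 (-1.65), whereas without shBruce Starv replicate 2 the shBruce value was -0.77 (adjusted p = 0.232). The shRenilla change also passed with length and GC trends removed (edgeR adjusted p = 0.0495). In shBruce it passed with limma-voom (adjusted p = 0.0453) and with trends removed (edgeR adjusted p = 0.0418). In all, 3 of 20 alternatives in shRenilla and 3 of 21 in shBruce gave a call. Because reads of the copies may have been split between them, their sum was also followed. It was 205, 175 and 191 normalized counts in shRenilla FM and 55.9, 49.3 and 67.6 in shRenilla Starv, then 260, 285 and 268 in shBruce FM and 64.6, 100 and 69.7 in shBruce Starv. Hspa1b made up between 87.5% and 98.9% of the sum in every library, so the sum followed Hspa1b.

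Hspa8, the constitutive HSC70 that every cell needs for folding and for uncoating clathrin, had normalized counts of 9202, 9744 and 9748 in shRenilla FM and 4516, 4688 and 5095 in shRenilla Starv. In shBruce they were 10066, 11284 and 9331 in FM and 5329, 5484 and 4924 in Starv. In both lines the starved libraries held close to 0.5 of the fed level (0.498 in shRenilla and 0.513 in shBruce) and the replicates lay close together. The log2 fold changes were -1.005 ± 0.111 (adjusted p = 6.5e-05) and -0.96 ± 0.11 (adjusted p = 7.7e-05) by the edgeR test. Hspa1b, Hspa8 and Dnajb1 were called in both lines whichever single library was left out.

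Hsph1, the HSP110 partner of HSP70, had normalized counts of 6314, 6342 and 6724 in shRenilla FM and 3929, 4283 and 4200 in shRenilla Starv. In shBruce FM they were 7827, 7370 and 6741, and in shBruce Starv 3153, 5128 and 3241. No starved library reached a fed one in either line, although shBruce Starv replicate 2 stood well above the other two. The log2 fold change was -0.64 ± 0.16 in shRenilla (edgeR, adjusted p = 0.0169) and -0.93 ± 0.16 in shBruce (adjusted p = 0.00158). The shRenilla call was lost without shRenilla FM replicate 2 (-0.67), FM replicate 3 (-0.61), Starv replicate 1 (-0.61) or Starv replicate 2 (-0.67).

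Among the cofactors of HSP70, Dnajb1 had normalized counts of 1792, 1940 and 1831 in shRenilla FM and 1258, 1257 and 1413 in shRenilla Starv. The shBruce libraries held 2182, 2301 and 2096 in FM and 1595, 1644 and 1478 in Starv. The fall was of similar size in both lines, at -0.50 ± 0.10 (edgeR, adjusted p = 0.00469) and -0.48 ± 0.10 (adjusted p = 0.00489) on the log2 scale. Bag3 had normalized counts of 984, 1118 and 1030 in shRenilla FM and 657, 629 and 747 in shRenilla Starv. The shBruce libraries held 1286, 1434 and 1178 in FM and 850, 1026 and 614 in Starv. The starved groups lay below the fed ones in both lines, with log2 fold changes of -0.62 ± 0.17 (edgeR, adjusted p = 0.0210) and -0.65 ± 0.17 (adjusted p = 0.0135). The Bag3 call in shRenilla was lost without shRenilla FM replicate 2 (-0.58), FM replicate 3 (-0.63), Starv replicate 1 (-0.60) or Starv replicate 2 (-0.57), and that in shBruce without shBruce FM replicate 2 (-0.57).

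Hsf1, the transcription factor of the response, had normalized counts of 1423, 1642 and 1579 in shRenilla FM and 1178, 1180 and 1315 in shRenilla Starv. In shBruce the counts were 1752, 2057 and 1598 in FM and 1247, 1334 and 1444 in Starv. The groups lay apart in both lines, but the change was smaller than in the HSP70 genes. It passed the threshold in shBruce (-0.42 ± 0.12, edgeR, adjusted p = 0.0236) and not in shRenilla (-0.34 ± 0.12, adjusted p = 0.0726). The shBruce call was lost without shBruce FM replicate 1 (-0.45) or 2 (-0.32), and a shRenilla call was gained without shBruce Starv replicate 1 (-0.33) or 3 (-0.34). The interaction of line and medium for Hsf1 was -0.09 (95% confidence interval -0.46 to 0.29, adjusted p = 0.896), so a difference between the lines was not shown.

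The small heat shock genes and HSP90 alpha did not pass the threshold under starvation in either line. Hspb8 had normalized counts of 997, 1048 and 972 in shRenilla FM and 763, 778 and 829 in shRenilla Starv (log2 fold change -0.35 ± 0.17, edgeR, adjusted p = 0.171). In shBruce it had 1323, 1278 and 1489 in FM and 1108, 1188 and 696 in Starv (-0.45 ± 0.17, adjusted p = 0.0661). In both lines all starved libraries lay below the fed ones, and shBruce Starv replicate 3 was the lowest. A shRenilla call was gained without that library (-0.35), and a shBruce call without shBruce Starv replicate 1 (-0.55) or 2 (-0.61), whereas without replicate 3 the shBruce value was -0.25 and did not pass. The shBruce change also passed with DESeq2 (adjusted p = 0.0453), limma-voom (0.0498) and length and GC trends removed without and with a replicate block (0.00562 and 0.0118).

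Hspb1 was low throughout, at 47.3, 48.1 and 49.3 normalized counts in shRenilla FM and 31.1, 21.6 and 38.1 in shRenilla Starv (log2 fold change -0.67 ± 0.41, edgeR, adjusted p = 0.291). In shBruce it was at 47.8, 59.7 and 66.5 in FM and at 78.7, 66.2 and 15.8 in Starv (-0.19 ± 0.41, adjusted p = 0.774). The starved shBruce libraries therefore lay on both sides of the fed ones. Without shBruce Starv replicate 3 the shBruce value was 0.30, not past the threshold, and the shRenilla value of -0.68 passed it.

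Hsp90aa1 had normalized counts of 5509, 5552 and 5106 in shRenilla FM and 3963, 4271 and 4619 in shRenilla Starv, a log2 fold change of -0.33 ± 0.23 (edgeR, adjusted p = 0.364). With only the shRenilla libraries fitted it was -0.31 and passed the threshold (edgeR, adjusted p = 0.0102). In shBruce it had 6593, 5593 and 5892 in FM and 11982, 6872 and 4932 in Starv (0.39 ± 0.23, adjusted p = 0.244). The 3 starved shBruce libraries ranged over more than the whole fed group on either side, and the highest value was in the shallowest library. Without that library, shBruce Starv replicate 1, the change in shBruce was -0.05. Without shBruce Starv replicate 3 it was 0.64 and passed the threshold (edgeR, adjusted p = 0.0177), so the direction in shBruce rests on single libraries.

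**Figure D3:**
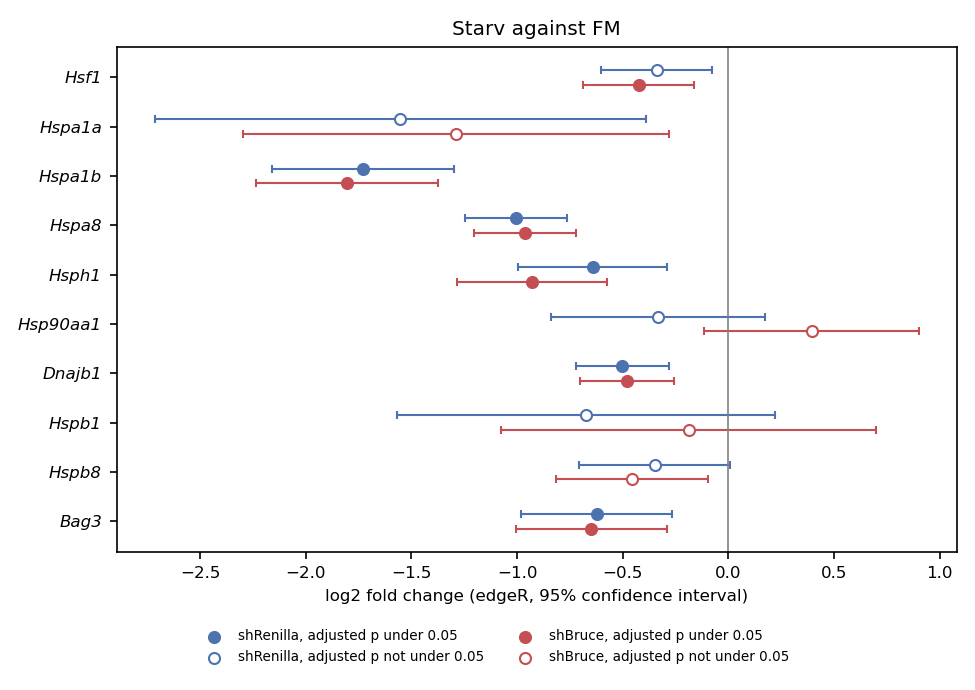
Log2 fold change of Starv against FM for each heat shock gene in shRenilla (blue) and shBruce (red), with 95% confidence intervals from the edgeR fit. Filled points passed an adjusted p of 0.05. They are 5 genes in shRenilla and 6 in shBruce, all below 0, and Hsp90aa1 in shBruce is the only point above 0, at 0.39.

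Counted over the gene group, 6 of the 10 genes fell under starvation in shBruce MEFs (Hspa1b, Hspa8, Hsph1, Dnajb1, Bag3 and Hsf1) and none rose, where 10.6% of all genes tested fell and 12.4% rose. Fold changes ran from -1.80 to 0.39 on the log2 scale with a median of -0.56, against 0.0205 over all genes tested. The 8 genes other than Hsp90aa1 and Hspb1 had every Starv library below every FM library, which held for 14.8% of all genes tested. Leaving out 1 library gave 4 to 8 called genes, where 15.1% to 32.7% of all genes tested were called in either direction. Without shBruce Starv replicate 3, the call of Hsp90aa1 was a rise (0.64). With only the 6 shBruce libraries fitted, Hspa1b, Hspa8 and Hsph1 passed, where 3.43% of all genes tested fell, while Dnajb1 (-0.47, edgeR adjusted p = 0.0916), Bag3 (-0.63, adjusted p = 0.101) and Hsf1 (-0.41, adjusted p = 0.162) did not. Hsf1 also missed the threshold with upper-quartile normalization (-0.33, adjusted p = 0.0693).

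Whether starvation acted differently in the 2 lines was tested by the interaction of line and medium. No heat shock gene passed (adjusted p from 0.806 to 0.981), nor did any gene of the table (0% called), and 1 heat shock gene and 474 genes in all were under an unadjusted p of 0.05. That heat shock gene was Hsp90aa1, with a difference in log2 fold change of 0.73 (95% confidence interval 0.0083 to 1.44, adjusted p = 0.806 by edgeR), which was 0.27 without shBruce Starv replicate 1. The most negative was Hsph1, at -0.29 (-0.78 to 0.21, adjusted p = 0.806), which was -0.55 without shBruce Starv replicate 2, -0.19 without replicate 1 and -0.18 without replicate 3. For Hspa8 the difference was 0.04 (-0.30 to 0.38) and for Dnajb1 0.02 (-0.29 to 0.33), while the interval for Hspa1b was wider, at -0.07 (-0.68 to 0.54).

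The line comparison asks whether these genes differed between shBruce and shRenilla MEFs. With a single hairpin sequence against Birc6, its depletion cannot be told apart from other differences between the lines. In FM none of the 10 genes passed the threshold, as did none of the 12154 genes tested (0% called). The smallest adjusted p was that of Birc6 (0.0627 by edgeR), so this fit did not call even the gene that the hairpin targets. The unadjusted p was under 0.05 for 3 heat shock genes and for 1750 genes in all. All 10 fold changes of shBruce against shRenilla were above 0, from 0.10 to 0.82 on the log2 scale with a median of 0.25, against 0.00641 over all genes tested, but Hspb1 turned to -0.070 once length and GC trends were removed. For 7 genes every shBruce FM library lay above every shRenilla FM library, which held for 16.4% of all genes tested. The 3 genes under an unadjusted p of 0.05 were Hspa1b, with a log2 fold change of 0.50 ± 0.18 (edgeR, adjusted p = 0.303), Hspb8, with 0.44 ± 0.17 (adjusted p = 0.303), and Dnajb1, with 0.24 ± 0.10 (adjusted p = 0.321). When only the 6 FM libraries were fitted, Hspb8 (0.44, adjusted p = 0.0478) and Hspa1b (0.49, adjusted p = 0.0490) passed, where 5.11% of all genes tested in that fit were called and 1.89% were higher in shBruce. The abundant Hspa8 was at 0.10 (95% confidence interval -0.14 to 0.33).

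In Starv, 1 of the 10 genes passed the threshold as higher in shBruce than in shRenilla MEFs, and none as lower. That count is near the share of all genes tested, of which 12.8% were higher and 11.2% lower. The gene was Hsp90aa1. Its 3 shBruce Starv libraries (4932 to 11982 normalized counts) lay above the 3 shRenilla Starv libraries (3963 to 4619), and the log2 fold change was 0.89 ± 0.24 (edgeR, adjusted p = 0.0268). The call was lost without shRenilla Starv replicate 1 (0.83) or 2 (0.88), and without shBruce Starv replicate 1 (0.45) or 2 (0.98). It was also lost with only the 6 starved libraries fitted (0.89, adjusted p = 0.119) and with length and GC trends removed together with a replicate block (1.11, adjusted p = 0.072). Dnajb1 was the only other gene whose groups did not overlap, at 1478 to 1644 against 1257 to 1413, with a log2 fold change of 0.26 ± 0.10 that did not pass (adjusted p = 0.0734). These 2 of 10 genes are near the 16.4% of all genes tested with every shBruce Starv library above every shRenilla Starv library.

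The median over the 10 genes in Starv was 0.31 on the log2 scale, against -0.00118 over all genes tested, and 9 of 10 values were above 0, the exception being Hsph1 at -0.11 (edgeR, adjusted p = 0.648), but with length and GC trends removed Hsph1 was at 0.14, Hsf1 at -0.19 and Hspb1 at -0.0091. Without shBruce Starv replicate 3, in which Hspb1, Hspb8, Bag3 and Hsp90aa1 were lowest of their group, 5 genes passed, all higher in shBruce, where 46.7% of all genes tested were called and 22.2% were higher. These were Hsp90aa1, Hspb1 (1.24), Hspb8 (0.54), Bag3 (0.47) and Dnajb1 (0.30). Without replicate 1 or 2 of either starved group the count was 0 (0 to 573 genes called in all), so the number of genes called in this comparison is set by single libraries.

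**Figure D4:**
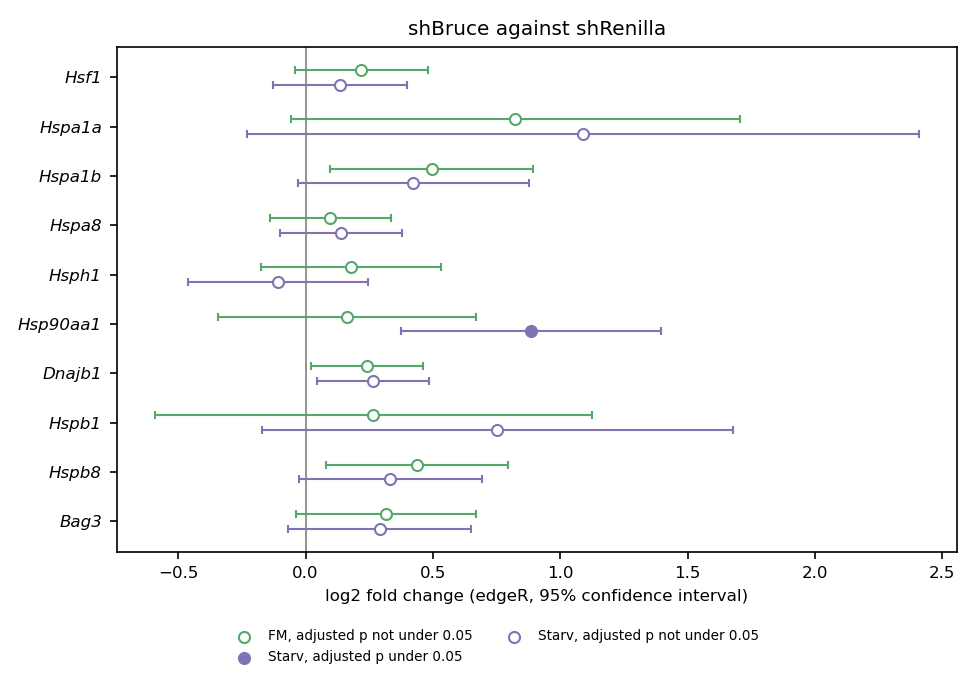
Log2 fold change of shBruce against shRenilla for each heat shock gene in FM (green) and in Starv (purple), with 95% confidence intervals from the edgeR fit. The FM points all lie above 0, from 0.10 to 0.82 (Hspb1 turned to -0.070 with length and GC trends removed), and the filled point, Hsp90aa1 in Starv at 0.89, is the one past an adjusted p of 0.05.

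The genes were also compared by how they moved over the 12 libraries, which share the 4 conditions, so these correlations describe both medium and line and carry no test. Dnajb1 (r = 0.978) and Bag3 (r = 0.969) lay closest to the mean of the other 9 genes, on the scale of log2 normalized counts. Hspa1b (0.910), Hspa8 (0.900) and Hspb8 (0.877) came next. Hsp90aa1 was the least like the rest (0.323). Of all pairs, Hspa1b and Hspa8 were most alike (0.969), whereas Hsph1 and Hsp90aa1 showed no relation (-0.08). Outside the 10 genes, those with the highest correlation with their mean z-score over the 12 libraries were Fscn1 (0.992), LOC101669761 (0.990), Zdhhc16 (0.988), Chchd4 (0.988) and Rrp7a (0.985).

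Chaperones outside the 10 genes had medians nearer 0. Of 62 further chaperone and cochaperone genes in 9 lists, 57 were tested. In shRenilla 5 fell and 1 rose under starvation, with a median log2 fold change of -0.20, and in shBruce 6 fell and 1 rose, with a median of -0.10. The shares that fell, 8.77% and 10.5%, were near those of all genes tested (7.27% and 10.6%). The share that rose was 1.75% in each line (9.69% and 12.4% of all genes). Most values still lay below 0, with 10 of the 57 above 0 in shRenilla and 16 in shBruce. Medians over all genes tested were -0.00509 and 0.0205, so a lean below 0 was not particular to the 10 genes. Among cytosolic J proteins, 3 of 8 fell in shRenilla and 1 of 8 in shBruce. They included Dnaja1, a partner of HSC70, which fell in shRenilla (-0.69, edgeR, adjusted p = 0.0170) and had a value of -0.19 in shBruce (adjusted p = 0.452). Dnajb5 fell in shRenilla (-0.62, adjusted p = 0.0232), and Dnajb4 fell in both lines (-0.60, adjusted p = 0.0301, and -0.90, adjusted p = 0.00282).

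Of 5 nucleotide exchange factors 1 fell in each line, and in both it was Bag2, an inhibitor of the HSC70-bound ubiquitin ligase CHIP (-0.54 in shRenilla, edgeR adjusted p = 0.0256, and -0.75 in shBruce, adjusted p = 0.00351). Of 10 genes for HSP90 and its cochaperones 1 fell in each line, near the share of all genes tested that fell (7.27% and 10.6%). It was the HSP70 to HSP90 adaptor Stip1 (-0.36 in shRenilla, edgeR adjusted p = 0.0305, and -0.41 in shBruce, adjusted p = 0.0128). Hspa4l, an HSP110 relative, was the 1 of 4 tested genes of the HSP70 and HSP110 list that fell in shBruce (-0.55, adjusted p = 0.0124), and none fell in shRenilla. None of the 3 tested transcription factor genes, the 2 tested small heat shock genes or the 8 subunits of the chaperonin TRiC, which folds actin and tubulin, passed in either line.

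In other compartments 3 genes passed the test, where 7.27% of all genes tested fell in shRenilla and 10.6% in shBruce. The shares of all genes that rose were 9.69% and 12.4%. Of 4 mitochondrial chaperones 1 fell in shBruce, Hspd1, which encodes HSP60 (-0.43, edgeR adjusted p = 0.0394). Of 13 chaperones of the endoplasmic reticulum, Hyou1 fell in shBruce (-0.56, adjusted p = 0.0262). Dnajb9, a J protein of that compartment, rose in both lines, from 202 ± 28.8 to 751 ± 77.2 normalized counts in shRenilla (log2 fold change 1.89, adjusted p = 1.3e-04) and from 159 ± 46.1 to 587 ± 164 in shBruce (1.89, adjusted p = 1.2e-04, SD, n = 3). It was the only one of the 57 genes that rose under starvation in either line.

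**Figure D5:**
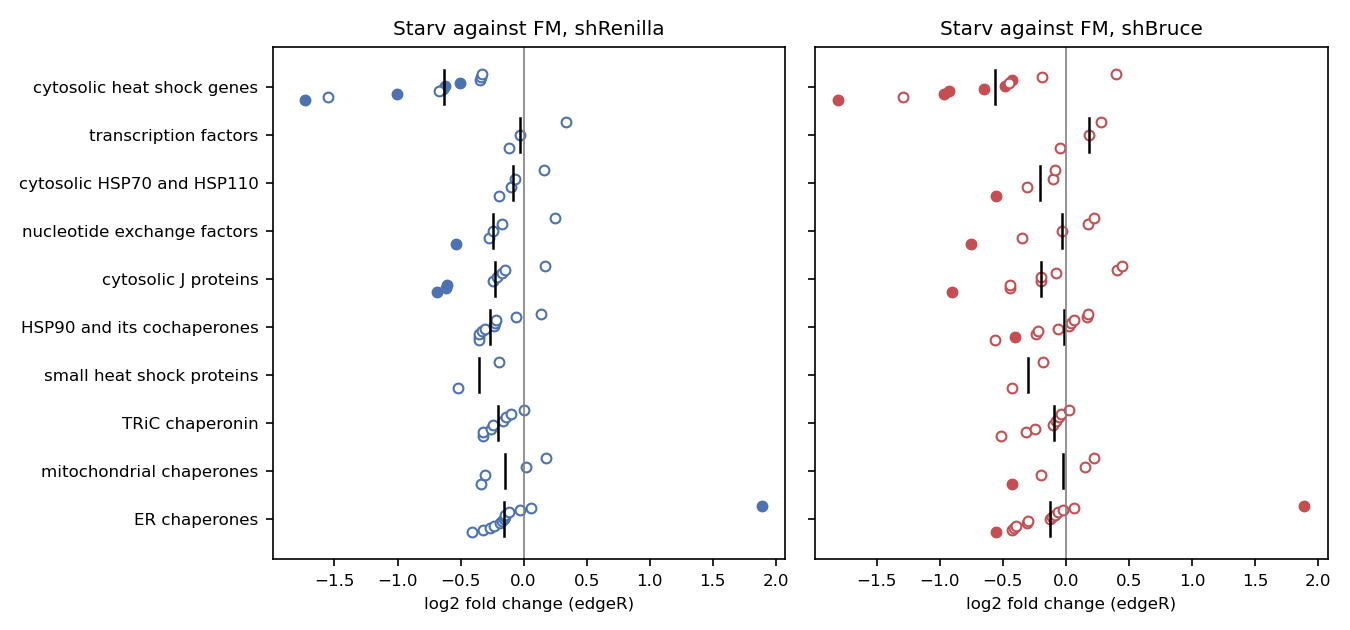
Log2 fold change of Starv against FM for the 10 cytosolic heat shock genes and the tested genes of 9 further chaperone lists, in shRenilla (left, blue) and shBruce (right, red). Each point is a gene, filled where the adjusted p was under 0.05, and black lines are list medians, which lie at -0.63 and -0.56 for the cytosolic heat shock genes. Dnajb9 is the filled point at 1.89 in each panel.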

How the data were processed

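Total RNA of MEFs was poly(A)-enriched, sequenced with single-end reads of 50 bases, freed of rRNA reads, mapped to mm10 with STAR 2.4.0d and counted per gene with HTSeq 0.5.4p3 by the authors. Annotation, strand setting and treatment of multi-mapping reads are not given in the sources used here. The deposited values are raw counts per gene in 12 libraries, with 0 columns left unused. Dates stood in place of 27 symbols (0.296% of counts), which stayed in library sizes and tests.

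Counts of all genes were fitted in a joint model with a mean for each condition (edgeR 4.0.16 in R 4.3.3, TMM normalization, filterByExpr, quasi-likelihood test, two-sided, Benjamini-Hochberg adjustment over 12154 genes, level 0.05). Normalized counts are counts divided by the effective library size relative to the geometric mean. Positions and lengths came from GENCODE M21. Alternatives included DESeq2 1.42.0, limma-voom (limma 3.58.1), other scalings and filters, removal of trends with length and GC content, a replicate block and leaving out each library. The fit was also run on simulated counts. These had the same spread in every library, unlike the data, so that run does not test the effect of unequal spread. Figures were drawn with matplotlib 3.10.9. No library was dropped.

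The 10 genes and the chaperone and marker lists were chosen with earlier results of these data known. All 10 genes are named, as are Birc6, up to 2 rising and 2 falling called genes of each chaperone list per starvation comparison, and the 5 genes most like the 10.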

Additional observations from a re-analysis of the deposited data

How the results depend on the processing

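For single genes, 42 results were followed under up to 23 alternatives, which gave 950 values. For the interaction these include only Hsp90aa1 and Hsph1. Of the 950 values, 888 kept their direction and side of the threshold, 21 lost the call and 29 gained one. The other 12 changed sign, none of those with a call. The number of the 10 genes called under starvation in shRenilla (5) was 2 when a change of at least 2-fold was required. That setting was not counted over all genes. The number was 9 when only the groups compared were fitted (41.9% of all genes tested called) and 3 to 8 when 1 library was left out (9.34% to 26.2%). In shBruce (6) it was 1, 3 (8.11%) and 4 to 8 (15.1% to 32.7%) in the same order. For the lines in FM (0) it was 2 when only the groups compared were fitted (5.11%). For the lines in Starv (1) it was 2 with DESeq2 (31.1%), 0 at 2-fold and 0 with only the groups compared (0%). It was 0 with length and GC trends removed and the replicate block (0.00823%), and 0 to 5 when 1 library was left out (0% to 46.7%). The causes were not tested. Values that changed sign with length and GC trends removed, without and with the block, were Hspb1 between lines in FM (-0.070 and -0.065), and in Starv Hsf1 (-0.19 and -0.20), Hsph1 (0.14 and 0.11) and Hspb1 (-0.0091 and -0.020). When 1 library was left out, values ranged from -0.045 to 0.64 for Hsp90aa1 and from -0.54 to 0.30 for Hspb1 under starvation in shBruce, and from -0.37 to 0.00092 for Hsph1 between lines in Starv. 

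No clear pairing of libraries by replicate number was seen. Of 18 same-numbered pairs 5 deviated together (r over 0.1, with values from -0.456 to 0.347), and 4 of 12 libraries correlated best with their own number. With 3 libraries per condition, whether the numbers mark a shared preparation cannot be decided. With the replicate block the counts of the 10 genes were 5, 6, 0, 1 and 0 for the 5 comparisons, and those over all genes 1770, 2450, 0, 1932 and 0, against 2061, 2790, 0, 2907 and 0 without it. Over all genes, fitting only the groups compared gave 5013, 956, 597 and 0 calls in the first 4 comparisons, DESeq2 gave 76 and no filter 7 for the lines in FM, and trend removal gave 2 there and 804 in Starv (1 with the block). Leaving out 1 library gave 1149 to 3212, 1855 to 4009, 0 to 32 and 0 to 5735. With upper-quartile normalization 1588 genes rose and 641 fell under starvation in shRenilla (1178 and 883 with TMM) and 1991 and 933 in shBruce (1506 and 1284), and the median over all genes in shBruce was 0.11. With trends removed the split was 1743 and 2211 in shBruce, and 523 higher and 281 lower between lines in Starv (1550 and 1357). Hspa1a had only 1 to 11 raw counts per library, and why they were so low was not tested.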
